A study of Mus musculus with 2 samples.

Results

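The molecular chaperones examined here were the heat shock proteins, their J-domain partners and the subunits of the cytosolic chaperonin, chosen by gene symbol: every symbol starting with Hsp followed by a, b, d, e, h or a digit, with Dnaja, Dnajb or Dnajc and a number, or with Cct2 to Cct8, but without the endoplasmic reticulum chaperones Hspa5 and Hsp90b1. Of the 17774 genes in the deposited counts, 66 met this rule. After removal of genes found in fewer than 3 cells, 64 of 15947 were left. Dnajc5g and Dnajc14, each with a count in 2 cells, were removed.

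Chaperones hold newly made or damaged proteins until they fold. The HSP70 proteins bind short exposed stretches with the help of J-domain (Dnaj) co-chaperones that start their ATP cycle, HSP90 takes over clients close to their final fold, small heat shock proteins hold clients without ATP, and the chaperonins are closed barrels, HSP60 with its lid HSP10 in mitochondria and the CCT ring for actin, tubulin and other clients in the cytosol. Photoreceptors renew their outer segments throughout life, and several of their phototransduction proteins depend on dedicated chaperones to reach a stable fold.

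The counts came from single cones of *Pde6c*.GFP mice, C57BL/6 animals that carry the *Pde6c* cpfl1 mutation, a model of cone dystrophy, and eGFP under the *Chrnb4* promoter, by which the cones were sorted. One group was uninjected, and in the other GSK-J4, an inhibitor of the Jumonji enzymes that demethylate H3K27, had been injected into the vitreous at PN14 at 10 µM, 10 days before collection at PN24. Both groups carried the same mutation and transgene, and the comparison asks how the drug altered expression in degenerating cones. There was 1 library and 1 plate of sorted cells for each group, the number of animals behind each is not stated, and no vehicle-injected cells were among the samples, so plate, injection and drug cannot be told apart, no difference below has a replicate check and no test was run. The names of the GSK-J4-treated cells hold the word adult although their label gives P24.

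The filter kept 82 of the 85 deposited cells of the uninjected library and 64 of the 66 treated ones; the study states the same number of uninjected and a larger number of treated cells than were deposited. Each library had its own plate, and 54 well names occurred in both. The libraries differed in depth: an uninjected cell held between 860 and 98250 counts with a median of 8118, a treated cell between 420 and 15371 with a median of 2335.5. They also differed in the markers of the sorted cell type. All 11 cone markers had a count in uninjected cells, where they took 0.358 to 9.81% of a cell's counts, whereas 5 of 11, *Opn1sw*, *Gngt2*, *Cngb3*, *Pde6c* and *Guca1a*, were at 0 in the treated library and 50 of its 64 cells had no cone marker count at all. In this respect the treated library went against its label. Rod markers took 0.228% and 0.0129% of the counts and Müller glia markers 0.105% and 0.0312%. The part of depth and of cell identity in the chaperone values below was not tested, and fewer cones and less RNA per cone cannot be told apart in summed counts.

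The heat shock factors that switch many of these genes on bind inverted GAA units. GAANNTTC or TTCNNGAA, motifs that read the same on both strands, were searched in the RefSeq promoter windows of GRCm38.p6, from 250 bases before to 50 after each start. Of the 54 members with a window, 17 (31.5%) held a match, against 17% of 27025 genes. Longer runs of 3 units, GAANNTTCNNGAA or TTCNNGAANNTTC, searched after the first result was seen, were in 4 members (7.41%), *Hspe1*, *Hspd1*, *Dnajb6* and *Hsph1*, and in 0.662% of all genes. The stretches below have the matched letters in capitals. They come from the 5 members with a match that were called lower in the comparison below, from *Dnaja4*, the 1 called higher, and from *Hspa1b*, the classical stress-inducible one. Other members with a match, such as *Cct2*, are not shown, so the stretches do not stand for all members with one.
*Hspe1*, chr1:55088053-55088082, plus strand: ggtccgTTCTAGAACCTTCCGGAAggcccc
*Hspb6*, chr7:30553170-30553199, plus strand: aagtaattattGAAGTTTCtaaataaggaa
*Dnaja1*, chr4:40722333-40722362, plus strand: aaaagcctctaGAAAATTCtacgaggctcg
*Dnajb6*, chr5:29735844-29735873, plus strand: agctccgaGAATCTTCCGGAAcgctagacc
*Cct5*, chr15:31601862-31601891, minus strand: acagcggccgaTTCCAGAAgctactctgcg
*Dnaja4*, chr9:54699458-54699487, plus strand: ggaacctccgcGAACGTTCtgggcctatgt
*Hspa1b*, chr17:34959324-34959353, minus strand: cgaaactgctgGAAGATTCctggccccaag

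The *Hspe1* stretch lies 95 to 66 bases before its start and is also in the window of *Hspd1*, the HSP60 gene transcribed the other way from the same region. No window was held for *Hspa8*, *Hsp90aa1* or *Hsp90ab1*. A match in these letters is a description and not a bound site.

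Of the 11 members with a count in at least 40% of uninjected cones, 6 had one in under 5% of the GSK-J4-treated cells: *Hspa8*, *Hspe1*, *Hsp90aa1*, *Hspb6*, *Dnaja1* and *Dnajb1*. Of all 1263 genes that were as widespread, 46.6% were under 5% in treated cells. Another 4, *Hsp90ab1*, *Hspbap1*, *Dnajb5* and *Dnajc11*, had a count in at least 20% of treated cells, as 31.8% of those genes did. To compare levels, each cell was scaled to 10000 counts and averaged over its library, and the means, with 1 added, were compared as natural logs, treated minus uninjected, giving the log-fold. A gene was compared when at least 10% of the uninjected or of the treated cells had a count, and a log-fold beyond 0.3 in size was called lower or higher. Of the 64 members, 43 were compared: 14 were lower (32.6%), where 24% of 7682 genes were, 6 were higher (14%), where 20.4% of all genes were, and 23 lay within the limit. In all, 44.4% of genes were beyond it in one or the other direction. The members' median log-fold was -0.13, against -0.0050 over all genes compared. These 43 passed the detection limit through either library, so they do not stand for all members. The 21 that were not compared had at most 21 counts in the uninjected and 8 in the treated library.

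**Figure D1:**
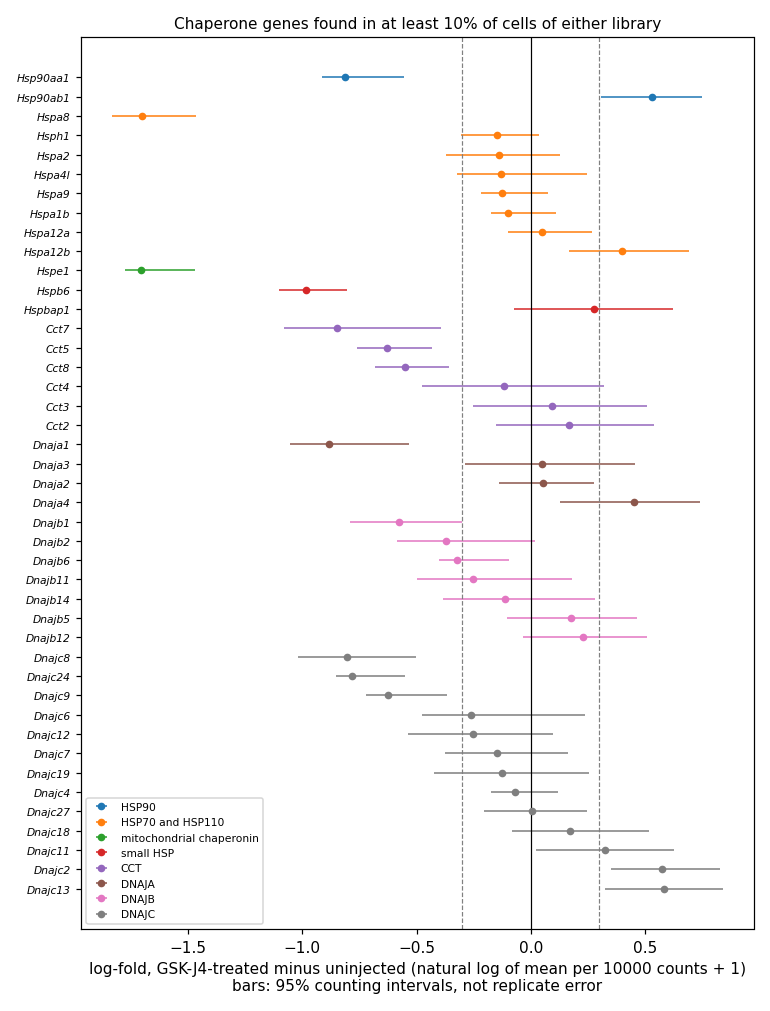
Log-fold (natural log, GSK-J4-treated minus uninjected) of the 43 chaperone genes compared, by role, with bars for the 95% counting interval and dashed lines at the limit of 0.3. *Hspe1* and *Hspa8* stood lowest at -1.71 and -1.70, and *Dnajc13* and *Dnajc2* highest at 0.58.

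Together the members held 4331 counts in uninjected cells, or 0.389% of all counts (95% interval 0.378 to 0.401%), and 555 counts in treated cells, or 0.266% (0.244 to 0.289%). These intervals, like all below, cover counting error only, exact Poisson for counts and their ratios and exact binomial for shares. An uninjected cell had a count of 1 to 44 members with a median of 11, and a treated cell of 0 to 14 with a median of 4. After every cell was thinned to 867 counts, which left 81 and 50 cells, the medians were 2 and 1.5 members per cell, and the members took 0.429% and 0.240% of the thinned counts. All 64 members but *Hspb7* had a count in the uninjected library, and 12 had none in the treated one. Of the 43 compared, 6 had no count there (14% of them, 12.3% among all genes).

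The background of each library was read from 396 olfactory and vomeronasal receptor genes (Olfr and Vmn), which cones are not known to use. In the treated library such a gene had a median of 3 counts, in 3.12% of cells, and the 95th percentile lay at 17 counts and 19.1% of cells. Of the 64 members, 59 were at or below that count percentile in the treated library, and 5, *Hsp90ab1*, *Hspbap1*, *Dnajc13*, *Dnajb5* and *Dnajc11*, were above it. In the uninjected library the 95th percentile was 38.25 counts, and 32 members were above it. A treated share near or below 19.1% is therefore read here as background and not as expression. The highest background gene had 369 treated counts, more than any member, so a value above the percentile does not by itself show expression.

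**Figure D2:**
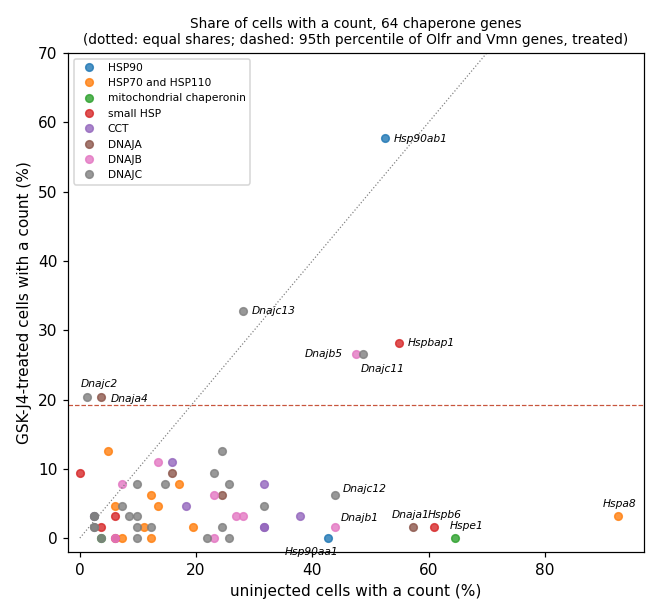
Share of cells with a count (%) for 64 chaperone genes, uninjected cells on the x axis and GSK-J4-treated cells on the y axis, coloured by role; the dashed line is the 95th percentile of Olfr and Vmn genes in treated cells (19.1%). *Hspa8*, *Hspe1*, *Hspb6*, *Dnaja1* and *Hsp90aa1* lie along the floor of the plot, and *Hsp90ab1* lies near the line of equal shares.

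Among the HSP70 proteins, *Hspa8* (chr9:40800984-40810087, GENCODE vM21 on GRCm38), the constitutive HSC70, was the member found in most uninjected cones. It had 580 counts (534 to 629) in 92.7% of uninjected cells (84.8 to 97.3%), and the level in a cell had a median of 2.97 and a maximum of 25.9 per 10000 counts. In the treated library it had 2 counts (0.242 to 7.22), in 3.12% of cells (0.381 to 10.8%). The mean level was 4.91 and 0.0751 per 10000, a log-fold of -1.70 (-1.84 to -1.47), and the ratio of summed counts, each over its library's total, was 0.0184 (0.00222 to 0.0668). At 867 counts per cell, *Hspa8* was still found in 32.1% of uninjected cells and in 0 of 50 treated cells, which by a floor of 3 cells allows up to 6.0% of cells with a count. Nearly every uninjected cell had a count and nearly every treated cell had none.

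The other HSP70 genes had few counts in either library. The stress-inducible *Hspa1b* had 11 counts (5.49 to 19.7), 1 or more in 12.2% of uninjected cells, and none in 64 treated cells, which by the floor of 3 cells allows up to 4.69% of cells with a count (exact binomial limit 5.6%). Its log-fold was -0.10, within the limit. *Hspa1b* is nearly identical to *Hspa1a*, which has no row in the deposited counts. How reads that fit both genes were handled is not stated, so this value is uncertain. *Hspa9*, the mitochondrial HSP70, had 43 counts and 1 count and a log-fold of -0.13. *Hspa12b*, a distant relative of HSP70, was higher at 0.40 (0.17 to 0.69) from 4 counts in 4.88% of uninjected and 8 in 12.5% of treated cells, a share below the 95th percentile of background genes. It was within the limit under 5 of 10 settings, at 0.29 from summed counts, 0.21 with median-ratio and with TMM factors, 0.27 without the cell with most counts and 0.0 in thinned cells. Of the 10 HSP70 and HSP110 genes, 8 were compared, 1 was lower, 1 higher and 6 within the limit, and together they took 0.0650% of uninjected and 0.0144% of treated counts.

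Of the cytosolic HSP90 isoforms, *Hsp90aa1* was lower and *Hsp90ab1* higher, except in plate columns 7 to 12, where the latter was at -0.15. *Hsp90aa1* (chr12:110690605-110702728), the stress-inducible isoform, had 130 counts (109 to 154) in 42.7% of uninjected cells (31.8 to 54.1%) and none in treated cells. Set against a floor of 3 counts over the treated library, this is at least 8.12-fold lower, and the log-fold was -0.81 (-0.91 to -0.56). *Hsp90ab1* (chr17:45567775-45573271), the constitutive isoform, had 274 counts (243 to 308) in 52.4% of uninjected cells (41.1 to 63.6%) and 171 counts (146 to 199) in 57.8% of treated cells (44.8 to 70.1%). Its mean level was 2.99 and 5.77 per 10000 counts, a log-fold of 0.53 (0.31 to 0.75), and it was the chaperone with the most treated counts.

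The higher level of *Hsp90ab1* was uneven over cells and wells. One treated cell held 95 of the 171 counts (55.6%), and without the cell with most counts in each library the log-fold was 0.38. In plate columns 1 to 6 the log-fold was 1.03, from 99 uninjected and 131 treated counts. In columns 7 to 12 it came from 175 uninjected and 40 treated counts. Thinned cells had a count in 13.6% of the uninjected and 28.0% of the treated.

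**Figure D3:**
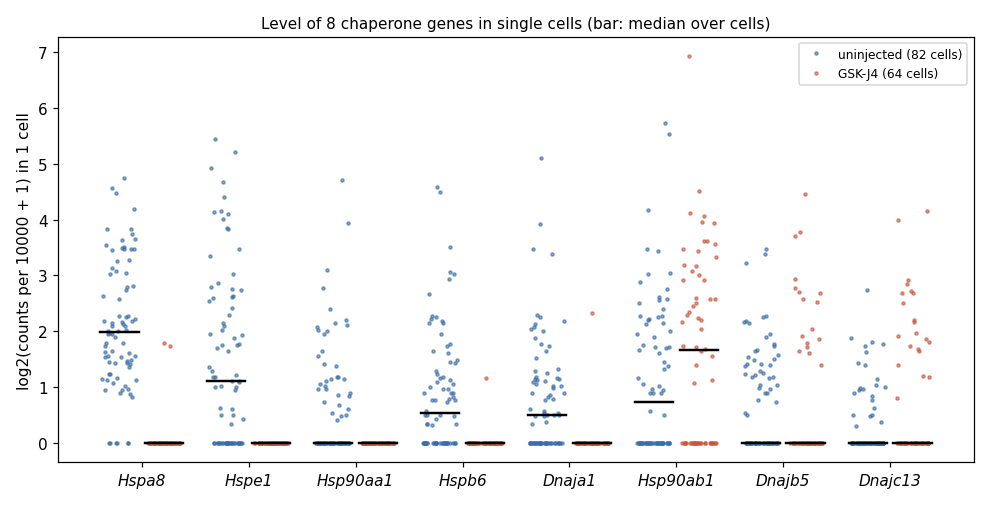
Level of 8 chaperone genes in each cell, as log2 of counts per 10000 plus 1, for 82 uninjected and 64 GSK-J4-treated cells, with a bar at the median over cells. For *Hspa8*, *Hspe1*, *Hsp90aa1*, *Hspb6* and *Dnaja1* nearly all treated cells sit at 0, while for *Hsp90ab1* the treated median of 2.17 per 10000 counts lies above the uninjected median of 0.676.

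In the mitochondrial chaperonin, the lid gene *Hspe1* carried nearly all counts. *Hspe1* (chr1:55088132-55091307) had 498 counts (455 to 544) in 64.6% of uninjected cells (53.3 to 74.9%), up to 42.7 per 10000 in a cell with a median of 1.16, and no count in the treated library, at least 31.1-fold lower against the floor. Its log-fold was -1.71 (-1.78 to -1.47), and thinned cells had a count in 22.2% of the uninjected and 0% of the treated. *Hspd1*, which encodes the HSP60 barrel, had 4 counts (1.09 to 10.2) in 3.66% of uninjected cells and none in treated cells, too few to be compared. The *Hspe1* and *Hspd1* gene bodies overlap on opposite strands, and since no source says that reads were assigned by strand, reads in the overlap could go to either.

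Of the small heat shock proteins, only *Hspb6* (HSP20) was widespread in uninjected cones. It had 167 counts (143 to 194) in 61.0% of uninjected cells and 1 count (0.0253 to 5.57) in the treated library. The log-fold was -0.99 (-1.10 to -0.81) and the ratio of summed counts 0.0320 (0.000805 to 0.181). *Hspb6* overlaps *Proser3* and *Lin37* on the other strand, so reads in the overlaps are open to the same doubt. *Hspbap1*, which enters by its symbol and encodes a protein that binds the small heat shock protein HSPB1, is no chaperone itself. It had 182 counts (157 to 210) in 54.9% of uninjected and 43 counts (31.1 to 57.9) in 28.1% of treated cells, and a log-fold of 0.28 (-0.075 to 0.62), within the limit. That sign turned under 6 of 10 settings: thinned cells (-0.27), columns 7 to 12 (-0.28), median-ratio (-0.22) and TMM factors (-0.23), at least 500 genes per cell (-0.40) and without the cell with most counts (-0.15). The classical stress-inducible *Hspb1*, named after its values were seen, had 3 counts and 1 count.

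The cytosolic chaperonin was covered in part, since no symbol starting with Cct6 had a row in the deposited counts. Covered were 6 ring subunits outside *Tcp1*, which the symbol rule leaves out, and *Cct8l1*, a gene related to *Cct8*. The 7 genes had 415 counts (0.0373% of all) in uninjected and 30 (0.0144%) in treated cells. *Cct7*, *Cct5* and *Cct8* were lower, with 65, 120 and 64 uninjected counts against 1, 2 and 1, and log-folds of -0.85, -0.63 and -0.55, 3 of 6 compared where 24% of all genes were lower. Each came within the limit under 1 setting, *Cct7* at -0.18 with at least 500 genes per cell, *Cct5* at -0.039 in columns 1 to 6 and *Cct8* at -0.25 in thinned cells. The ratios of their summed counts were 0.0821 (0.00205 to 0.474), 0.0890 and 0.0834. *Cct4* at -0.12, *Cct3* at 0.09 and *Cct2* at 0.17 were within the limit, from 71, 53 and 40 uninjected and 7, 7 and 9 treated counts. These calls also depended on the setting. *Cct4* was at -0.39 with median-ratio factors, TMM factors and at least 500 genes per cell, and at -0.35 without the cell with most counts. *Cct3* was at -0.27 with both factors and 0.23 in columns 7 to 12. *Cct2* was at -0.11 with both factors and 0.43 with a pseudocount of 0.1. *Tcp1*, the ring's first named subunit, had 24 and 5 counts and a log-fold of 0.12, and *Cct8l1* had 2 and 3 counts. All 6 ring subunits compared had fewer than 10 treated counts, within the background of that library, and *Cct7* and *Cct8* overlap a gene on the other strand.

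Of the DNAJA co-chaperones, *Dnaja1*, a cytosolic partner of HSP70, was lower and its relative *Dnaja2* was not. *Dnaja1* (chr4:40722150-40737149) had 121 counts (100 to 145) in 57.3% of uninjected cells and 1 count in the treated library, a log-fold of -0.88 (-1.05 to -0.53) and a ratio of summed counts of 0.0441 (0.00111 to 0.250). *Dnaja2* had 44 and 11 counts and a log-fold of 0.05. *Dnaja4* was among the few with more counts in the shallower library, with 3 (0.619 to 8.77) in 3.66% of uninjected and 16 (9.15 to 26.0) in 20.3% of treated cells, a log-fold of 0.45 (0.13 to 0.74) and a ratio of 28.5 (8.15 to 152). That treated share is just above the 19.1% of background genes and its 16 counts are below their 17. *Dnaja1* and *Dnaja4* both overlap a gene on the other strand.

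Of 7 DNAJB genes compared, 3 were lower (42.9%, against 24% of all genes), 4 within the limit and none higher, and each of the 3 came within the limit under at least 1 setting. *Dnajb5* had 159 counts (135 to 186) in 47.6% of uninjected and 37 (26.1 to 51.0) in 26.6% of treated cells, with a log-fold of 0.18 (-0.11 to 0.47) and a ratio of 1.24 (0.844 to 1.79). *Dnajb2*, a neuronal J-domain protein that also binds ubiquitin chains, was lower at -0.37, from 87 and 2 counts, and at -0.14 in columns 1 to 6. The remaining lower members of this family, named after their values were seen, were *Dnajb1*, the stress-inducible HSP40, at -0.58 from 63 and 4 counts, all 4 in 1 cell, and -0.27 from counts summed over each library, and *Dnajb6*, a suppressor of aggregation, at -0.33 from 60 and 0 counts, and 0.0 in thinned cells.

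The DNAJC genes, whose J-domains serve many separate tasks, had 3 of 13 compared lower and 3 higher, 23.1% each, close to the 24% and 20.4% of all genes, and 7 within the limit. *Dnajc13*, which acts on endosomes, had 71 counts in 28.0% of uninjected and 40 in 32.8% of treated cells, a log-fold of 0.58 (0.32 to 0.84) and a ratio of 3.01 (1.99 to 4.49). With median-ratio and TMM factors *Dnajc13* was within the limit, at 0.28 and 0.27. Of its 40 treated counts, 12 were in 1 cell, and without the cell with most counts in each library the log-fold was 0.53. *Dnajc2*, which works at the ribosome, had 1 count in uninjected and 15 in treated cells, the latter in 20.3% of them, a log-fold of 0.58 (0.35 to 0.83) and a ratio of 80.1 (12.3 to 3371), with a treated count below the 17 of background genes. *Dnajc11*, a protein of the mitochondrial membranes, had 204 counts (177 to 234) in 48.8% of uninjected and 35 (24.4 to 48.7) in 26.6% of treated cells. Its log-fold of 0.32 (0.024 to 0.63) stood just outside the limit. The ratio of summed counts was 0.916 (0.621 to 1.32), an interval that includes 1, so summed counts gave no clear direction. Of the 35 treated counts, 13 were in 1 cell, and without the cell with most counts in each library the log-fold was 0.12.

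*Dnajc24*, which takes part in the diphthamide modification of elongation factor 2, was lower at -0.78 and had no treated count, at least 15.2-fold lower. Its 243 uninjected counts came from 25.6% of cells, all in plate columns 1 to 6, and 160 of them (65.8%) from 1 cell. Next to it *Dnajc9*, a histone chaperone, had 96 counts in 22.0% of uninjected cells, also all in columns 1 to 6, and none in treated cells, a log-fold of -0.62. The third lower member was *Dnajc8*, a splicing-related gene, at -0.80 from 77 and 3 counts. *Dnajc8* and *Dnajc9* were named after their values were seen.

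The side of the plate moved with the level of several members within the uninjected library, whose cells share 1 group. Of 38 members with at least 20 uninjected counts, 2 had counts in columns 1 to 6 only, *Dnajc24* and *Dnajc9*, and 1, *Dnajc17*, in columns 7 to 12 only. That is 7.89%, against 4.71% of 6090 genes with as many counts. *Cct5* had 4.17% of its counts in columns 1 to 6 and *Cct3* had 96.2%. *Hspe1* had 87 counts in columns 1 to 6 and 411 in columns 7 to 12, at mean levels of 2.23 and 6.57 per 10000, whereas *Hspa8* had mean levels of 4.62 and 5.17. *Hspa8* and *Hspe1* were lower in the treated library on both sides. What the plate sides stand for is not stated.

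**Figure D4:**
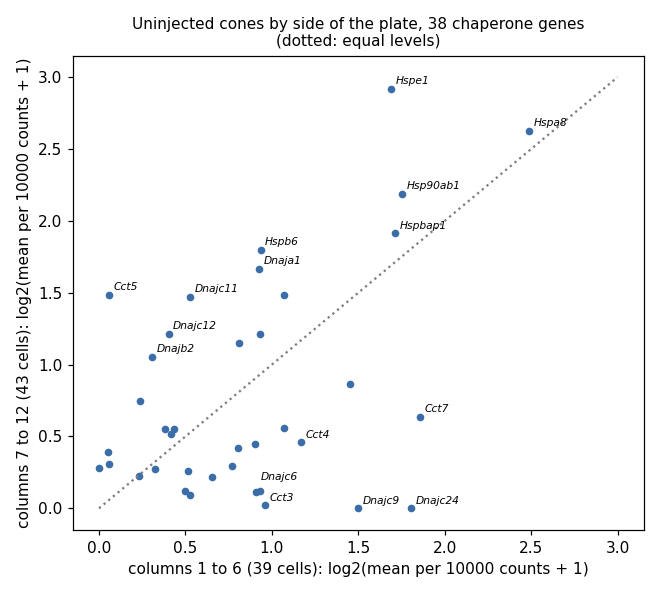
Mean level, as log2 of the mean per 10000 counts plus 1, of 38 chaperone genes in uninjected cones from plate columns 1 to 6 (39 cells, x axis) and 7 to 12 (43 cells, y axis), with a dotted line of equal levels. *Hspa8* lies near the line, while *Cct5* and *Hspe1* lie above it and *Dnajc9* and *Dnajc24* lie on the x axis.

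The 6 members that were widespread in uninjected and scarce in treated cells were picked by those shares, so their values per cell are a description. Their counts summed to 1559 over the uninjected cells and to 8 over the treated ones, and an uninjected cell had a count of 0 to 6 of them with a median of 4. The number of members found in a cell moved with its total count, with Spearman correlations of 0.90 over the uninjected and 0.85 over the treated cells. At least 1 of the 6 was present in 5 of 64 treated cells. Of those 5 treated cells, 2 also had a cone marker count, as 14 treated cells did in all. Most of the treated counts lay elsewhere: 8 genes with at least 15 counts, *Hsp90ab1*, *Hspbap1*, *Dnajc13*, *Dnajb5*, *Dnajc11*, *Dnaja4*, *Dnajb12* and *Dnajc2*, held 372 of 555 (67.0%).

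Co-chaperones, regulators and other chaperones outside the symbol rule were examined as a list of 44 genes, of which 28 were compared. Of these, 17 were lower (60.7%, against 24% of all genes), 3 higher (10.7%, against 20.4%) and 8 within the limit, with a median log-fold of -0.45 against -0.0050, and the list took 0.618% of uninjected and 0.145% of treated counts. *Pfdn5*, a subunit of the prefoldin complex that hands clients to the CCT ring, had 3034 counts (2927 to 3144) in uninjected cells and none in treated cells, at least 189-fold lower, with a log-fold of -3.43. *Hsbp1*, which binds heat shock factor 1, was at -2.05 from 361 and 2 counts. Among the higher genes were the mitochondrial disaggregase gene *Clpb* at 0.43, from 44 and 39 counts, and heat shock factor 2 (*Hsf2*) at 0.36, from 28 and 12 counts. *Clpb* was at -0.0033 in plate columns 7 to 12. Heat shock factor 1 (*Hsf1*) had 4 and 2 counts and was not compared.

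Since tissue dissociation is known to induce stress genes, 14 immediate early genes were read beside the chaperones. Of 11 compared, 5 were lower in treated cells (45.5%, against 24% of all genes), 1 was higher (9.09%, against 20.4%) and 5 were within the limit, with a median log-fold of -0.26. *Fos* had 124 counts (103 to 148) in uninjected and none in treated cells, and a log-fold of -0.53. *Jund* and *Ier2*, also called lower, had no treated count either. The remaining lower genes, *Egr1* at -0.54 and *Nr4a1* at -0.46, were not lower in summed counts. The ratio of summed counts was 1.04 (0.541 to 1.86) for *Egr1*, and its interval for *Nr4a1* was 0.526 to 4.13. Both intervals include 1, so summed counts gave no clear direction for *Egr1* and *Nr4a1*. The list had 495 and 61 counts in all, or 0.0445% of uninjected and 0.0292% of treated counts. Its part in the chaperone values was not tested.

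**Figure D5:**
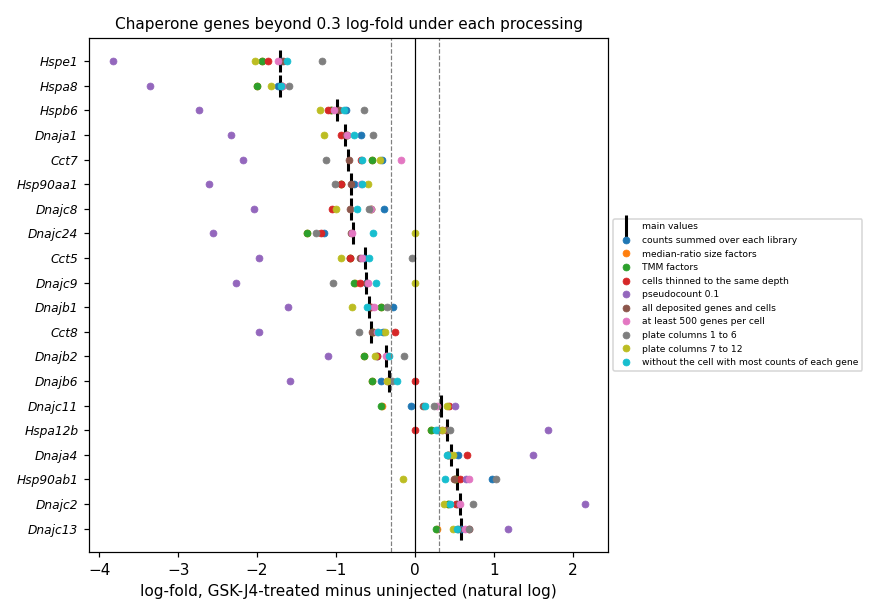
Log-fold (natural log, x axis) of the 20 chaperone genes beyond 0.3, with a black bar for the main value and a dot for each other way of processing the counts; dashed lines mark the limit. *Hspe1*, *Hspa8*, *Hspb6*, *Dnaja1*, *Hsp90aa1* and *Dnajc8* stayed beyond the limit under all 10 settings, whereas *Dnajc11* and *Hsp90ab1* crossed 0 under some.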

How the data were processed

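RNA of single GFP-positive cones was sequenced by an assay adapted from SMARTseq2 and MARS-seq. The authors aligned the reads in the CLC Genomics Workbench, removed PCR duplicates by a UMI of 8 bases and mapping position, counted reads per gene against Gencode M17 with featureCounts (per the labels) and added the counts of both read ends. The genome is named as GRCh38, a human build number, so coordinates here are from GENCODE vM21 on GRCm38. The authors deposited raw counts per gene and cell, without normalization, and 0 deposited columns were left unmapped to a sample.

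As in the study's methods, a gene had to be found in 3 or more cells, and a cell had to have 200 or more genes and no more than 5% of mitochondrial counts. The batch correction named there was not applied, and no doublet caller was run. Cells were not treated as replicates, so no test was run. Levels, log-folds, Poisson and Clopper-Pearson intervals at 95% and thinning without replacement used numpy 2.4.6, scipy 1.17.1 and pandas 2.3.3 in Python 3.11.15, with figures from matplotlib 3.10.9. Intervals of log-folds carry the bounds of the summed counts over to the mean level. A gene without a count was given a floor of 3 counts over its library for folds written as at least, which do not allow for counting error in the other library. The calculation was tested on simulated counts with known folds.

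Members and lists were chosen with earlier results of these data known. The genes named were, in each of 8 role groups, the 2 with the most counts, the 6 highest and 6 lowest log-folds, members with no count in 1 library and at least 100 in the other, all Cct genes among the members, *Hspa1b*, and of the co-chaperone list *Tcp1*, *Hsf1* and the 3 highest and 3 lowest. *Hspa1a* was to be named as well but had no row in the deposited counts. Some genes that this rule names are left out here. Others are said to be named later or belong to a count given in full. Of the 66 members, 27 overlap a gene on the other strand. Alternatives were other scalings, thinned cells, a pseudocount of 0.1, no filter, at least 500 genes per cell, detection in 25% of cells, each side of the plate and leaving out the cell with most counts of each gene.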

Additional observations from a re-analysis of the deposited data

How the results depend on the processing

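No paired analysis was possible because each group had 1 library without a replicate number, and no library could be left out for the same reason. Of the 14 lower members, 11 had the same sign under all 10 settings, as did 3 of the 6 higher ones, *Dnaja4*, *Dnajc2* and *Dnajc13*, and only *Dnaja4* and *Dnajc2* of these stayed beyond the limit in each. The causes of the shifts below were not tested. Main log-folds of the summed groups were -0.66 for CCT, -0.25 for DNAJA, -0.23 for DNAJB, 0.028 for DNAJC, -1.19 for HSP70, 0.25 for HSP90, -1.71 for the mitochondrial chaperonin and -0.10 for small heat shock proteins. The last group includes *Hspbap1*, which is no chaperone and held 182 of its 371 uninjected and 43 of its 53 treated counts. Its values here and below therefore do not stand for the small heat shock proteins alone. *Hspa8* held 580 of the 724 uninjected counts of the HSP70 and HSP110 genes, and 6 of the 8 compared were within the limit. The HSP70 values here and below therefore mostly reflect *Hspa8*. Median-ratio and TMM factors moved the median of all genes to -0.14 and -0.15. Both gave 23 members lower and 3 higher, a member median of -0.38, 1 co-chaperone higher, a co-chaperone median of -0.61, and CCT at -1.06, DNAJB at -0.77, DNAJC at -0.76, HSP70 at -1.54, the mitochondrial chaperonin at -1.95 and small heat shock proteins at -0.63, with *Dnajc11* reversed to -0.42 and -0.43. Relative to the shifted median 16 members were lower and 6 higher, and of all genes 34.0% were lower and 8.14% higher before that shift with median-ratio factors. Counts summed over each library gave DNAJC -0.24, HSP90 0.69 and *Dnajc11* reversed at -0.056. In thinned cells, where 8 members were compared and 38.9% of 1510 genes were lower and 46.6% higher with a median of 0.23, 4 members were lower and 3 higher with a median of -0.55, 7 co-chaperones lower and 1 higher with a median of -0.98, DNAJC was at -0.27, the mitochondrial chaperonin at -1.86 and small heat shock proteins at -0.57, and members took 0.429% and 0.240% of counts. A pseudocount of 0.1 gave 26 members lower and 10 higher, with 40.9% and 38.2% of all genes, a median of -0.45, 5 co-chaperones higher with a median of -1.38, HSP70 at -1.58 and the mitochondrial chaperonin at -3.84. At least 500 genes per cell gave HSP90 0.46 and small heat shock proteins -0.72. Plate columns 1 to 6 gave HSP90 0.61, the mitochondrial chaperonin -1.17, small heat shock proteins 0.43 and members 0.366% and 0.328% of counts. Columns 7 to 12 gave DNAJC 0.22, HSP90 -0.32, the mitochondrial chaperonin -2.03, small heat shock proteins -0.74 and members 0.411% and 0.220% of counts, with *Hsp90ab1* reversed to -0.15 and *Clpb* to -0.0033. Without the cell with most counts of each gene, 1 co-chaperone was higher, DNAJC was at -0.26 and small heat shock proteins at -0.52. Detection in at least 25% of cells left 21 members, 12 of them lower and 3 higher, with a median of -0.55, where 46.2% of all genes were lower and 21.9% higher with a median of -0.22.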

Other observations

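The median span from the first to the last annotated base of a gene was 11564.5 bases for lower, 23513.5 for higher and 24652 for other compared members, and 12187, 42845 and 31466.5 bases for all genes, in the same order. Of the members with a promoter entry, the heat shock element was in any window of 5 of 12 lower, 1 of 3 higher, 4 of 19 within the limit and 6 of 18 not compared. It was in 31.5% of all members with an entry and in 17% of all genes.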
